A study of Rattus norvegicus with 15 samples.

Results

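The capillary endothelial marker genes are 35 genes by which the cells that line muscle capillaries are commonly recognized, and 30 of them were measured by a probe set of their own. A probe set, the group of short probes that reads 1 transcript on the array, was taken where its only gene symbol is one of the 35, which gave 50 of the 31042 probe sets and 30 of the 14217 genes measured in this way. Cdh5, Robo4, Cd34, Ednrb and Apold1 had no such probe set and are not reported. RNA of the gastrocnemius, the main calf muscle, of 15 male Wistar rats was read with 1 array for each rat. The study asked how a diet low in protein after weaning alters growing muscle, and whether later feeding on the control diet restores it. CN rats (n = 4) ate 15% casein for 4 weeks from the age of 4 weeks, and LP rats (n = 4) ate 8% casein over the same weeks. CN-R (n = 3) and LP-R (n = 4) rats had the same first diets and were sampled at day 84. By the study's methods both then ate the control diet, whereas the sample labels keep the first diet until sampling, and the former is used here. All rats were fasted for 16 h before sampling, and rats whose body weight lay near the mean of their group were chosen for the arrays. The 15 samples include no CN-R replicate 3. CN-R replicate 4 is a control by its title and description and a restricted rat by its treatment field, and it was kept in CN-R.

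Endothelial cells form the wall of every capillary and let oxygen, fatty acids and other nutrients pass from blood to muscle fibers. Their growth is steered by vascular endothelial growth factor (VEGF), which acts on the receptors Kdr and Flt1 and on the co-receptor Nrp1, and by the angiopoietins, which act on Tek together with Tie1. Transcription factors of the ETS family (Erg, Fli1) and of the SOX family (Sox17, Sox18) maintain the identity of these cells. Several members are also made elsewhere, as Aqp1 is in red blood cells and Cxcr4 in leukocytes.

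The values were log2 signals that the authors had computed with FARMS, a method that draws a probe set to a near constant when its probes do not vary together. Where a gene had several probe sets, the one with the highest mean signal gave its value, which is said to vary when its SD over the arrays of a comparison exceeded 0.01. Values of 24 members varied in the comparison of LP with CN, and 15 in that of LP-R with CN-R. Pecam1, Egfl7, Nos3, Plvap, Erg and Rasip1 were nearly constant in both, so nothing can be said of their response. Over 31042 probe sets, 3974 varied in the first comparison and 3100 in the second. Within each comparison, Pearson's r between pairs of arrays lay between 0.997 and 0.999 (across probe sets, which are not independent). Most of these probe sets were nearly constant, which by itself raises r, so it says little of how well the arrays agree. By their values, CN and LP appear to have been summarized apart from CN-R and LP-R, which the study's methods do not state. Of 26041 probe sets nearly constant within both, 94.7% differed by over 0.01 between them. Each restricted group was therefore compared with its own control alone. A gene was called when rank products gave it a pfp, the share of false positives estimated at its rank, up to 0.05 over all probe sets. The study used rank products too, but in another version, so the calls here are not those of the study.

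After 4 weeks on 8% casein, genes of capillary endothelium were more often called higher than lower. Kdr, the main signalling receptor of VEGF, had the largest change, 1.32-fold higher in LP than in CN, followed by the chemokine receptor Cxcr4 (1.27-fold), the VEGF co-receptor Nrp1 (1.27-fold) and the membrane protein Cyyr1 (1.27-fold). The sialomucin Emcn, the tight junction protein Cldn5, the water channel Aqp1, the receptor Tie1 and the lipase anchor Gpihbp1 were called higher by 1.10- to 1.20-fold. Thus 9 of 30 members were called higher, where 2.57% of all 14217 genes were, and 2 of 30 (Sox17 and Tmem100) were called lower, where 2.41% were. Since near-constant genes cannot be called, the closer reference is the 2674 genes with a varying probe set, of which 13.7% were called higher and 12.8% lower, against 37.5% of the varying members called higher. The mean was higher in LP for 19 of the 24 varying members (79.2%) and for 63.2% of all 2423 varying genes. The median change of the members was 0.07 on the log2 scale and that of all varying genes 0.03. Fewer endothelial cells and less RNA per cell cannot be told apart in RNA of whole muscle, and the same holds for more of either.

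These calls depend on the method. Rank products order probe sets by fold change without regard to the spread of each, and over the varying probe sets alone they called 0 members in either direction. By limma, which weighs each change by its spread, 0 members and 0 genes in all passed an adjusted p of 0.05, with 0.0743 as the lowest adjusted p over all probe sets. At an unadjusted p under 0.05 by limma, 4 of the 24 members passed (Kdr, Gpihbp1, Aqp1 and Nrp1), a share of 16.7% that is near the 14.7% of all varying genes. CN and LP did not overlap for 3 of the 24 (Kdr, Gpihbp1 and Cyyr1, each higher in LP, 12.5%), against 7.8% of all varying genes in either direction. Cxcr4, Gpihbp1, Tie1, Tmem100, Nrp1 and Sox17 appear in published tables chosen on these same arrays, so their direction is not independent evidence. Without these 6, 5 of 24 members were called higher (20.8%, against 2.57% of all genes) and 0 lower, and the 5 were 27.8% of the members that vary, against the 13.7% given above. These 5 were called on the same arrays too, from a list chosen with earlier results known, so they are not independent evidence either.

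The sequences just before the start of 4 of the genes called higher are shown for the motifs of endothelial transcription factors that they hold or lack. Kdr is given because its change was the largest, and Tie1, Emcn and Aqp1 because they are the ones called higher that hold the ETS motif AGGAAG. The 250 bases before the annotated start are from RefSeq (build GRCr8), read 5′ to 3′ on the strand of the gene, at chr14:32571813-32572062 (plus strand) for Kdr, chr5:137304982-137305231 (minus strand) for Tie1, chr2:228564289-228564538 (plus strand) for Emcn and chr4:85812534-85812783 (plus strand) for Aqp1. Capitals mark AGGAAG or its reverse complement CTTCCT, the only form of the ETS motif that was sought. Other forms of ETS sites were neither sought nor marked.
Kdr: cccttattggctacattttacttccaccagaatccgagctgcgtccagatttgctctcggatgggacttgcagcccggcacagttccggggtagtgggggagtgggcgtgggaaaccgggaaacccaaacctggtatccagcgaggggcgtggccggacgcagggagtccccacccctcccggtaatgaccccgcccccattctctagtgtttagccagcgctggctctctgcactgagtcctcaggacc
Tie1: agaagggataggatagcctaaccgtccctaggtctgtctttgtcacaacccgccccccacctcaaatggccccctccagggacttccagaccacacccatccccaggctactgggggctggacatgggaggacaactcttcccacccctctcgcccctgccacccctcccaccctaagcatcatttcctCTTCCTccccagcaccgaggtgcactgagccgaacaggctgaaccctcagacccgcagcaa
Emcn: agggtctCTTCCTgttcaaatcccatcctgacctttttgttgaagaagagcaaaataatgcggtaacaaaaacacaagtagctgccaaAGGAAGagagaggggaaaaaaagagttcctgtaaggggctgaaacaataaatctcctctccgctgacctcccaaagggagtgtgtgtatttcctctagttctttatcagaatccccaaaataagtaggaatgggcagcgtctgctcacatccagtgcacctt
Aqp1: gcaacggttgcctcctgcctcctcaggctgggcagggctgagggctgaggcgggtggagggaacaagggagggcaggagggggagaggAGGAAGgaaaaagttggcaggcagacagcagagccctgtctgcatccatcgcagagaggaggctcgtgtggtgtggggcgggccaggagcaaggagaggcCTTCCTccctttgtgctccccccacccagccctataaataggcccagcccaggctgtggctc
Promoters of 21 of the 35 members were in the RefSeq table. The ETS motif AGGAAG, sought on both strands, was in 13 of these 21 (S1pr1, Emcn, Egfl7, Eng, Nos3, Aqp1, Apold1, Tie1, Robo4, Erg, Flt1, Mmrn2 and Plvap) and in 29.5% of all 33469 promoters of that length. Among the 8 promoters of genes called higher, 3 held it, which are the 3 shown here for that reason. Kdr, Nrp1, Cxcr4, Cyyr1 and Cldn5 had no match to AGGAAG or CTTCCT in this window, which says nothing of sites elsewhere or of ETS sites with other letters. The SOX motif ACAAAG or its reverse CTTTGT was in 5 of 21 against 16.3% of all, and the shorter SOX motif ACAAT or ATTGT in 6 of 21 against 30.0%. The GATA motif AGATAA or TTATCT was in 1 of 21 (Erg) against 10.3%, and TATAAA on the strand of the gene in 5 of 21 (Aqp1, Apold1, Flt1, Cxcr4 and Plvap) against 8.06%. The median GC content was 59.2% for the members and 51.2% for all promoters. These matches are letters in a window and were not tested as binding sites.

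Of the VEGF receptors, Kdr and the co-receptor Nrp1 were called higher and Flt1 was not. The log2 signal of Kdr was 8.62, 8.63, 8.53 and 8.81 in the CN rats and 9.19, 8.98, 9.05 and 8.97 in the LP rats, in the order of replicates 1 to 4. All LP values lay above all CN values. The change was 0.40 (SE 0.08, pfp 0.00182), with a two-sided exact permutation p of 0.0286, the smallest that 70 splits of 4 and 4 arrays allow. The call held without each array in turn, at 0.36 to 0.46. The other probe set of Kdr was nearly constant (6.12 in CN and in LP), so the change rests on the brighter probe set alone. Nrp1 had 9.03, 8.79, 8.61 and 8.93 in CN and 9.32, 9.24, 9.01 and 9.16 in LP, so that only the lowest LP value fell within the range of CN. Its change was 0.34 (SE 0.11, exact permutation p 0.0571), its second probe set was called as well with 0.19 (SE 0.13), and the call held without each array at 0.26 to 0.40. Flt1, the other VEGF receptor, which binds VEGF tightly but signals weakly, had a change of −0.01 (SE 0.29) and was not called. Its SD was 0.48 in LP and 0.32 in CN, among the widest of the members, so a change as large as that of Kdr lies within its error, and a difference between the receptors was not tested.

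Of the angiopoietin receptors, Tie1 had a log2 signal of 7.18, 7.04, 6.88 and 7.00 in CN and 7.31, 7.25, 7.05 and 7.06 in LP. The groups overlapped, since the highest CN value exceeded the LP values of replicates 3 and 4. The change of 0.14 (SE 0.09, exact permutation p 0.143) was called, and the call was lost without any of 5 of the 8 arrays (CN replicate 3 and each LP array), at 0.09 to 0.19 over all 8. Tek, the receptor that binds the angiopoietins, had a change of 0.10 (SE 0.06) and was not called (pfp 0.0612). Ptprb, the phosphatase that restrains Tek, had 0.04 (SE 0.10) by its brighter probe set and −0.20 (SE 0.12) by the other, and neither was called.

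**Figure D1:**
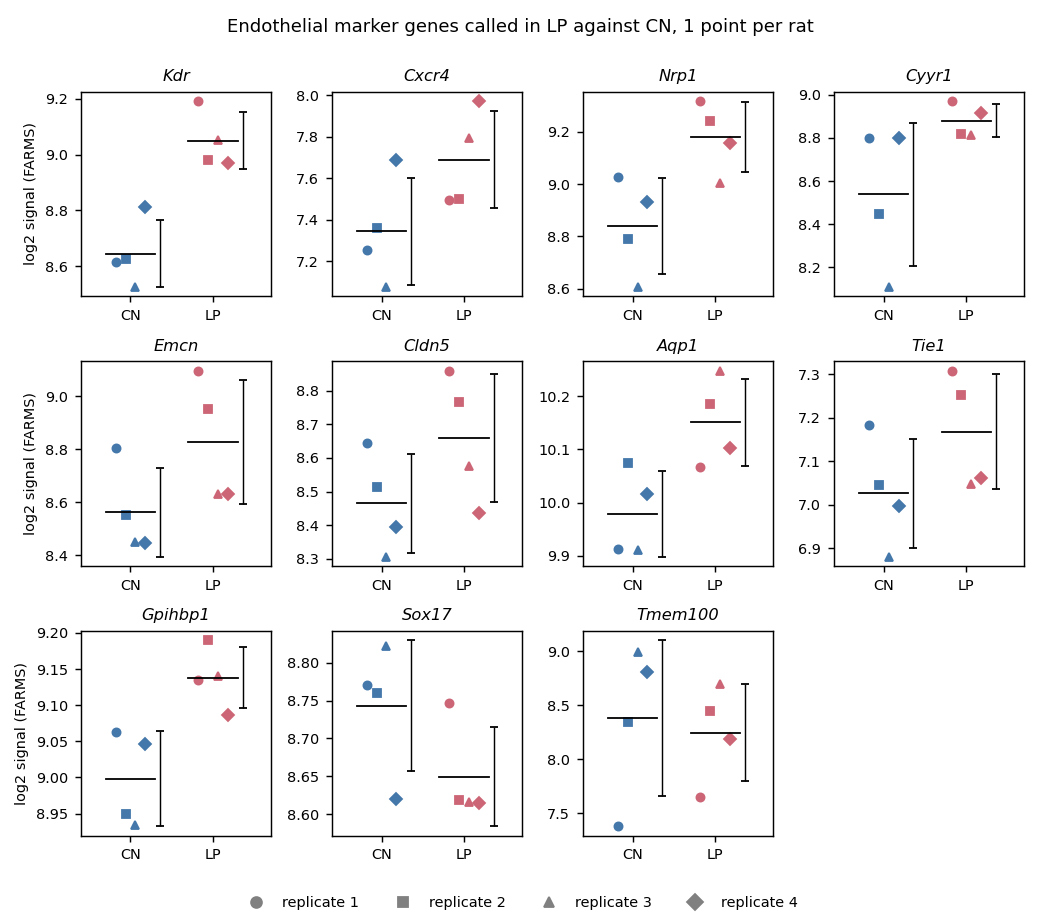
Log2 signal of the 11 members called between LP and CN, with 1 point per rat, the marker shape giving the replicate number, a line at the group mean and a bar of 1 SD (n = 4 each). Axes differ between genes and do not start at 0. Kdr, Cyyr1 and Gpihbp1 have all LP points above all CN points, and in every other panel the groups overlap.

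Surface proteins of the capillary wall showed changes in part of the group. Emcn, a sialomucin that is abundant on capillaries and veins, had 8.80, 8.55, 8.45 and 8.44 in CN and 9.10, 8.95, 8.63 and 8.63 in LP. The highest CN value lay above 2 of the LP values. Its change was 0.27 (SE 0.14, exact permutation p 0.114) and the call was lost without LP replicate 1 or LP replicate 2 (lowest value 0.18). Cldn5, which seals the junctions between endothelial cells, had 8.64, 8.51, 8.31 and 8.39 in CN and 8.86, 8.77, 8.58 and 8.44 in LP. These overlapped too, and the change of 0.19 (SE 0.12, exact permutation p 0.171) was no longer called without CN replicate 3 or any of LP replicates 1, 2 and 3, with values of 0.13 to 0.27 over all 8 arrays left out. Cyyr1 had 8.80, 8.45, 8.11 and 8.80 in CN and 8.97, 8.82, 8.81 and 8.92 in LP. All LP values were above those of CN, though CN replicates 1 and 4 came close to the lowest of them, and the spread was wider in CN (SD 0.33) than in LP (SD 0.08). Its change was 0.34 (SE 0.17, exact permutation p 0.0286), called without each array in turn at 0.20 to 0.43. The other varying surface proteins were not called. Their changes were 0.11 (SE 0.16) for Eng, a co-receptor of the TGF-beta family, 0.08 (SE 0.08) for Clec14a, 0.06 (SE 0.05) for the adhesion molecule Esam, 0.06 (SE 0.07) for Icam2 and 0.04 (SE 0.03) for the matrix protein Mmrn2.

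Among members with a role in exchange across the capillary wall, Gpihbp1 and Aqp1 were called higher. Gpihbp1, which carries lipoprotein lipase to the capillary lumen, had 9.06, 8.95, 8.93 and 9.05 in CN and 9.14, 9.19, 9.14 and 9.09 in LP. The groups did not overlap, and the change was 0.14 (SE 0.04, exact permutation p 0.0286). Aqp1, the water channel of endothelium and red cells, had 9.91, 10.07, 9.91 and 10.02 in CN and 10.07, 10.19, 10.25 and 10.10 in LP, with the lowest LP value just below the highest CN value. Its change was 0.17 (SE 0.06, exact permutation p 0.0571), and its other probe set had 0.09 (SE 0.05) and was not called. For both genes the call was lost without any single LP array, at 0.12 to 0.16 for Gpihbp1 and 0.14 to 0.20 for Aqp1. Of 4 measured erythroid markers 0 were called, and the 1 that varied had a change of −0.09.

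Among the receptors coupled to G proteins, Cxcr4, the receptor of the chemokine Cxcl12, had 7.25, 7.36, 7.08 and 7.69 in CN and 7.49, 7.50, 7.79 and 7.97 in LP. CN replicate 4 lay above 2 of the LP values, so the groups overlapped. Its 3 probe sets, which read the same transcript and are not independent, were all called higher, with changes of 0.24, 0.35 and 0.35, and the brightest (SE 0.17, exact permutation p 0.114) was called without each array in turn at 0.25 to 0.46. Of 16 measured leukocyte and macrophage markers 0 were called and 15 were nearly constant. S1pr1, which tightens the endothelial barrier, had a change of 0.01 (SE 0.21), and Ramp2, a partner of the adrenomedullin receptor, one of 0.01 (SE 0.07). Vwf, the clotting factor carrier stored in endothelium, had −0.01 (SE 0.05). None of these 3 was called.

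Of the transcription factors, Sox17 had 8.77, 8.76, 8.82 and 8.62 in CN and 8.75, 8.62, 8.62 and 8.61 in LP, so that LP replicate 1 lay within the range of CN. It was called lower with −0.09 (SE 0.05, pfp 0.0466, exact permutation p 0.0571), and the call was lost without any of 7 of the 8 arrays. Sox18 had −0.03 (SE 0.14) and Fli1 0.05 (SE 0.12), and neither was called. Tmem100, a membrane protein that arterial endothelium makes in response to BMP signals, had 7.38, 8.34, 8.99 and 8.81 in CN and 7.65, 8.45, 8.70 and 8.19 in LP. The groups overlapped almost fully and its change of −0.13 was smaller than its SE of 0.42 (exact permutation p 0.771), though rank products called it lower. Its direction turned, to values of 0.0094 to 0.07, when CN replicate 3, CN replicate 4 or LP replicate 1 was left out.

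**Figure D2:**
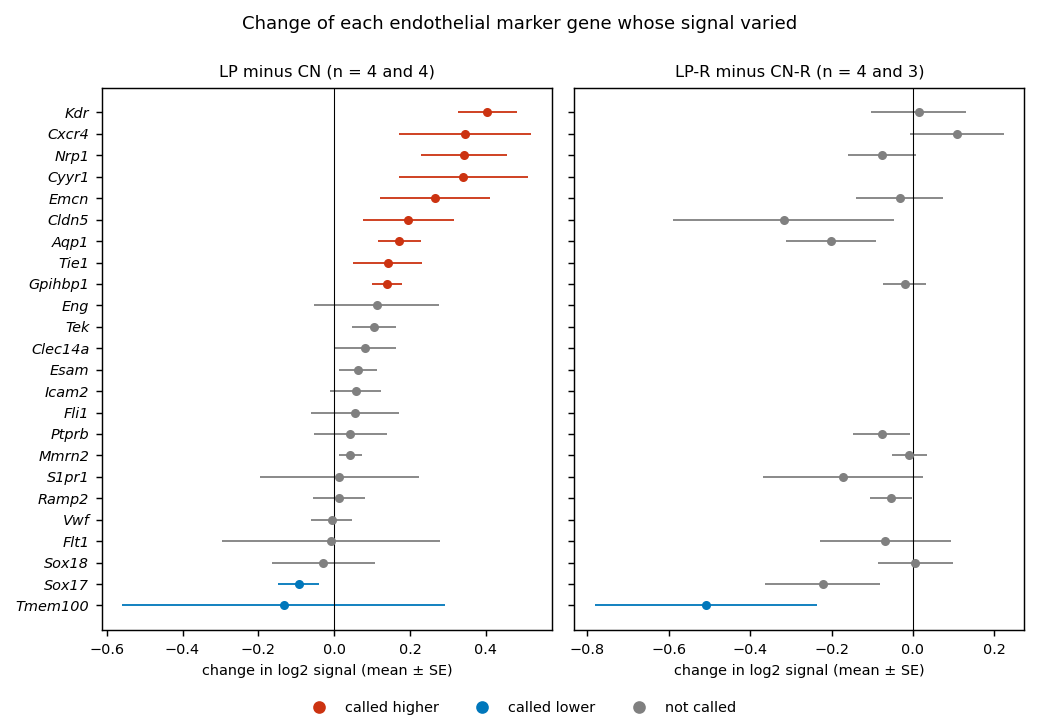
Change in log2 signal (mean of the restricted rats minus mean of their controls, with bars of 1 SE) of every member that varied, ordered by the change of LP against CN. The 9 members called higher in LP run from 0.14 to 0.40, and at day 84 Tmem100 alone was called, with −0.51; genes without a point on the right were nearly constant there.

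In CN and LP, most members differed between replicates 1 and 2 and replicates 3 and 4 in the same direction, as did most varying genes. Emcn, Cldn5, Tie1, Nrp1, Flt1 and S1pr1 were higher in replicates 1 and 2 than in replicates 3 and 4 of both CN and LP, by 0.23 in CN and 0.39 in LP for Emcn and by 0.44 and 0.81 for Flt1. In total 11 of 24 members differed in that direction in both groups, 8 in the opposite direction in both, among them Tmem100, Eng and Sox18, and 5 had opposite signs (45.8%, 33.3% and 20.8%). Over all 2423 varying genes these shares were 34.2%, 34.5% and 31.4%. The labels name no batch behind these numbers, and the split was chosen with these values known. Within both pairs of replicates, 16 of the 24 members (66.7%) had a higher mean in LP, and so did 44.4% of all varying genes. Kdr differed by 0.47 between the first 2 replicates and by 0.34 between the last 2, Nrp1 by 0.37 and 0.31, Emcn by 0.35 and 0.18 and Cldn5 by 0.23 and 0.16. The counts and values of the pairs come from the same arrays as the calls, so a shared sign of the pairs is not separate evidence. For Tmem100 the pairs had opposite signs, at 0.19 and −0.46.

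**Figure D3:**
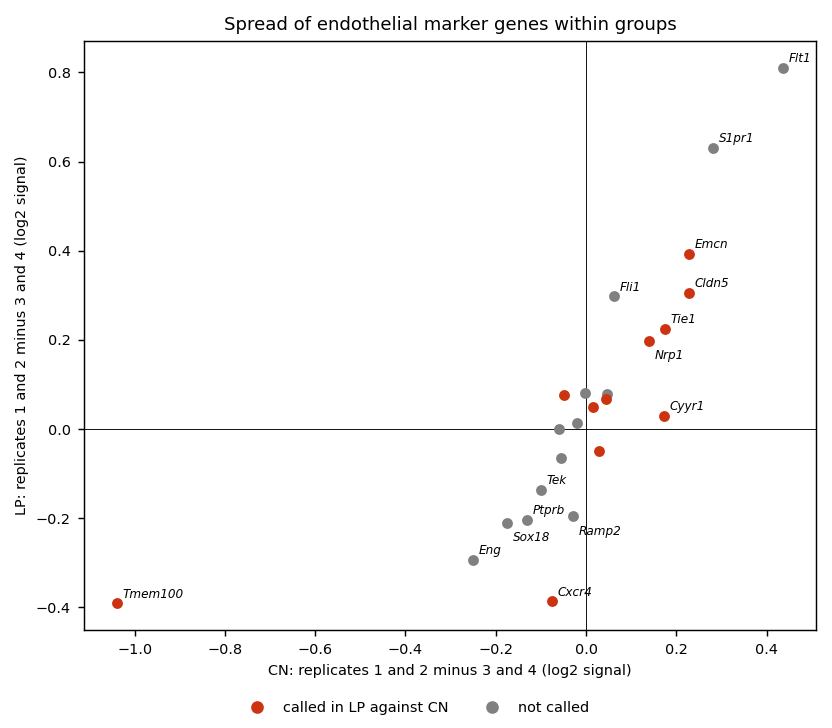
Mean log2 signal of replicates 1 and 2 minus that of replicates 3 and 4, in CN on the horizontal axis and in LP on the vertical axis, with 1 point for each of the 24 varying members. Most points lie at the lower left or upper right, 11 at higher and 8 at lower values of replicates 1 and 2 in both groups.

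After feeding until day 84, the endothelial genes that had been called higher in LP were not called higher in LP-R. Of 30 members 0 were called higher, where 0.422% of all genes were, and 1 (Tmem100) was called lower, where 0.274% were. Among all genes with a varying probe set, 2.88% were called higher and 1.87% lower. These shares depend on how arrays are paired: rank products over all pairs called 107 probe sets higher and 53 lower, and over disjoint pairs 11 higher and 30 lower, with the same member counts of 0 and 1. By limma 0 members passed, at a smallest adjusted p of 0.539 over all probe sets, and 0 of the 15 varying members had an unadjusted p under 0.05, against 3.59% of all varying genes. The groups overlapped for all 15 varying members, and 3.99% of all varying genes had no overlap. With only 15 members, a count of 0 does not set them apart from either share. The mean was higher in LP-R for 3 of the 15 (20%) and for 32.8% of all 1755 varying genes, and the median change was −0.07 for the members and −0.02 for all. Tek, Tie1, Vwf, Eng, Esam, Icam2, Clec14a, Fli1 and Cyyr1, which had varied earlier, were nearly constant in the arrays of day 84, so the later course of Tie1 and Cyyr1 was not measured.

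Tmem100 had a log2 signal of 7.78, 7.76 and 8.56 in CN-R (replicates 1, 2 and 4) and 7.20, 7.40, 7.77 and 7.73 in LP-R. CN-R replicate 4, the array whose labels conflict, was the highest of all 7, and LP-R replicate 3 lay above CN-R replicate 2. The change was −0.51 (SE 0.27, exact permutation p 0.0857, where 35 splits allow 0.0286). The call was lost without any 1 of the CN-R arrays, at −0.64 without replicate 1, −0.64 without replicate 2 and −0.24 without replicate 4, and the change was −0.04 with CN-R replicate 4 counted as LP-R. Cldn5 had 8.80, 7.99 and 7.83 in CN-R and 8.13, 7.82, 7.72 and 7.88 in LP-R, a change of −0.32 (SE 0.27) that was not called. CN-R replicate 1 stood far above the other CN-R values. Sox17 had 7.88, 7.65 and 7.64 in CN-R and 7.72, 7.65, 7.37 and 7.28 in LP-R, with −0.22 (SE 0.14), and was not called either. Both Cldn5 and Sox17 were called lower without LP-R replicate 1.

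The receptors that had the largest changes in LP were close to their controls. Kdr had 8.61, 8.21 and 8.20 in CN-R and 8.40, 8.27, 8.37 and 8.38 in LP-R, a change of 0.01 (SE 0.12). CN-R replicate 1 was the highest of the 7, and without it Kdr was called higher. Nrp1 had 8.49, 8.24 and 8.17 in CN-R and 8.27, 8.19, 8.21 and 8.21 in LP-R (−0.08, SE 0.08), again with CN-R replicate 1 highest. Cxcr4 had 7.08, 7.36 and 7.24 in CN-R and 7.15, 7.30, 7.36 and 7.53 in LP-R (0.11, SE 0.12). It was called higher without CN-R replicate 2. Emcn had 8.43, 8.19 and 8.19 in CN-R and 8.44, 8.23, 8.13 and 8.15 in LP-R, with −0.03 (SE 0.11). These groups overlapped over almost their whole range. Gpihbp1, at 7.84, 7.89 and 7.84 in CN-R and 7.92, 7.89, 7.73 and 7.79 in LP-R, had −0.02 (SE 0.05). Aqp1 had 10.02, 9.92 and 9.85 in CN-R and 9.53, 9.64, 9.93 and 9.80 in LP-R, with −0.20 (SE 0.11) and −0.24 (SE 0.21) by its other probe set. It was called lower without LP-R replicate 3. The remaining varying members, S1pr1, Ptprb, Flt1, Ramp2, Mmrn2 and Sox18, had changes from −0.17 to 0.01, and none was called.

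**Figure D4:**
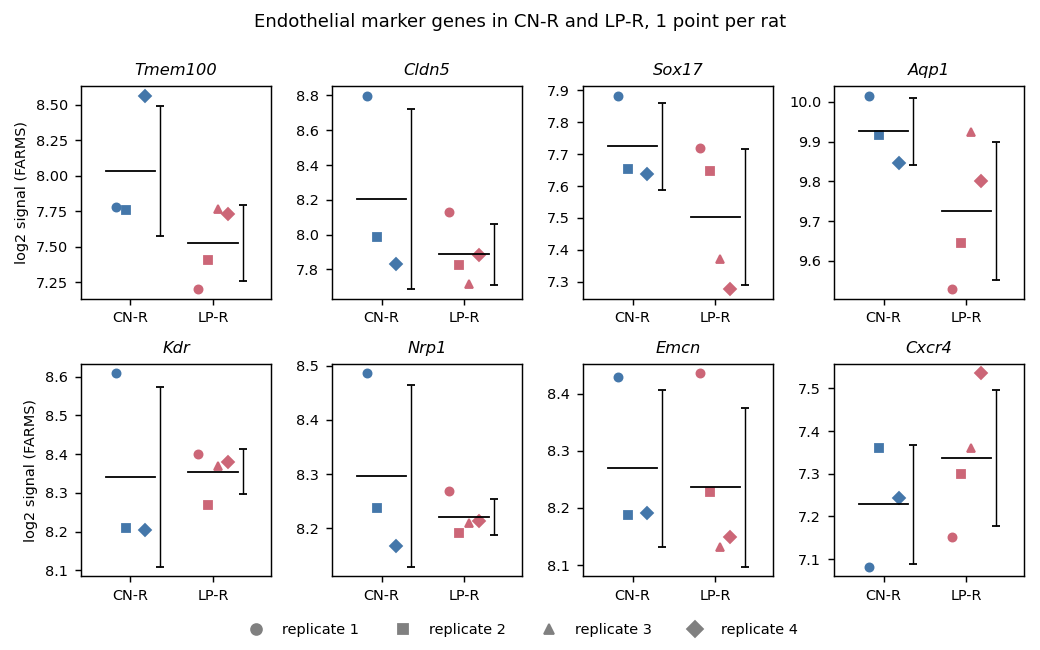
Log2 signal of 8 members in CN-R (n = 3) and LP-R (n = 4) at day 84, with 1 point per rat, the marker shape giving the replicate number, a line at the group mean and a bar of 1 SD. Axes differ between genes and do not start at 0. CN-R replicate 1 is the highest CN-R point of Cldn5, Sox17, Aqp1, Kdr, Nrp1 and Emcn, and the groups overlap in every panel.

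Whether a change differed between LP and LP-R was tested directly as the difference between the changes, with limma over all 15 arrays. There a constant shift between the early and late sets of arrays cancels. No member passed (smallest adjusted p 0.601 among members), and 0 of all genes did (smallest adjusted p 0.0755). An exact permutation within both sets, over 2450 splits, gave 0 as well, with 0.796 as the smallest adjusted p among members. Before adjustment, 1967 probe sets had p under 0.05 by limma and 1861 by the exact test. The members with the smallest unadjusted limma p were Aqp1, with a difference of 0.37 (SE 0.12, p 0.00861), Nrp1 with 0.42 (SE 0.15, p 0.0138) and Kdr with 0.39 (SE 0.14, p 0.0147). A loss of the early change is therefore not shown for any single member at an adjusted p of 0.05.

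Ligands and signalling partners of the same pathways were given by a list of 21 measured ligands, of which 5 varied by their brightest probe set. Cxcl12, the ligand of Cxcr4, and Apln, an angiogenic peptide, were called higher in LP and 0 were called lower. These 2 were 33.3% of the 6 ligands with any varying probe set, against 13.7% of all such genes. The 2 called probe sets of Cxcl12 had changes of 0.19 (SE 0.18) and 0.21 (SE 0.05), the latter without overlap of the groups, while its dimmest probe set had −0.08 (SE 0.19). Apln had 0.19 (SE 0.17) by the probe set that varied. Vegfa had 0.18 (SE 0.14) by one probe set and −0.08 (SE 0.09) by another, and neither was called. Of 31 measured partners in the endothelial cell, 3 were called higher and 1 lower. They were Cav1, the coat protein of caveolae, with 0.14 (SE 0.04) and no overlap by any of its 3 probe sets, the apelin receptor Aplnr with 0.36 (SE 0.29), the ETS factor Ets1 with 0.22 (SE 0.12), and, lower, Mef2c, a factor that muscle fibers make too, with −0.27 (SE 0.19). None of these passed limma after adjustment. The 3 called higher were 20% of the 15 partners with a varying probe set, against 13.7% of all such genes. Among all such genes 12.8% were called lower. Of 12 genes of lipid handling, such as Lpl and Cd36, 0 were called. At day 84, 0 ligands were called, Klf2, a factor induced by blood flow, was called lower with −0.67 (SE 0.69), and the fatty acid binding protein Fabp5 higher with 0.14 (SE 0.09). Klf2 was 1 of 11 varying partners and Fabp5 1 of 6 varying genes of lipid handling. Of all genes with a varying probe set, 1.87% were called lower and 2.88% higher there.

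Markers of other cells in the same muscle were read beside them. Of 12 measured pericyte markers, 1 (Vtn, 0.09, SE 0.03) was called higher in LP and the mean of all 6 that varied was higher. Among 9 venous markers Lrg1 (0.15, SE 0.05) and Plat (0.12, SE 0.07) were called higher, among 6 lymphatic ones Ccl21 (0.14, SE 0.05), and among 7 arterial ones 0. Of the markers with a varying probe set, 50% of 4 venous, 33.3% of 3 lymphatic, 16.7% of 6 pericyte and 0 of 3 arterial ones were called higher. The share was 37.5% for the capillary members and 13.7% for all genes. Median changes were 0.08 for venous, 0.09 for lymphatic, 0.09 for pericyte and 0.04 for arterial markers, against 0.07 for the members. Of smooth muscle markers 1 of 9 was called lower (Tagln, −0.17, SE 0.11), and of fibroblast markers 2 of 12 (Col1a2 with −0.17, SE 0.11, and Col1a1 with −0.19, SE 0.16, by its dimmer probe set, the brighter one having −0.09, SE 0.13, and not being called). A varying probe set was found for 4 smooth muscle and 9 fibroblast markers. Of all such genes 12.8% were called lower. Adipoq (0.38, SE 0.38) was the only called gene of 7 adipocyte markers, 4 of which varied. Of 13 myofiber, 4 satellite cell, 4 Schwann cell and 4 platelet markers 0 were called. The mean log2 signal over the 24 varying endothelial members ran from 8.47 to 8.56 in CN and from 8.58 to 8.67 in LP. The mean over the 6 pericyte markers ran from 8.37 to 8.44 and from 8.46 to 8.51, that of the 1 varying leukocyte marker from 8.09 to 8.26 and from 8.08 to 8.36, and that over all 2423 varying genes from 8.97 to 8.99 and from 8.98 to 9.02. Their part in the endothelial values was not tested. At day 84 the same mean over the 15 varying members ran from 8.13 to 8.26 in CN-R and from 8.02 to 8.12 in LP-R, and over all 1755 varying genes from 9.02 to 9.06 and from 8.95 to 9.01. There the adipocyte marker Cfd was called lower (−0.34, SE 0.09), and of 13 myofiber markers Myh1 was called higher (0.15, SE 0.07) and Myh7 lower (−0.39, SE 0.24), each by probe sets other than its brightest. Only 2 of 16 measured leukocyte and macrophage markers varied there, C1qc (−0.15, SE 0.04) and C1qa (−0.08, SE 0.02), and neither was called. Their groups did not overlap, as held for 3.99% of all varying genes. The mean of the 2 ran from 7.80 to 7.89 in CN-R and from 7.70 to 7.74 in LP-R. Of pericyte, venous, arterial and lymphatic markers 0 were called at day 84. The shares of all genes with a varying probe set were 2.88% called higher and 1.87% lower there. The part of these markers in the lower endothelial mean was not tested.

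**Figure D5:**
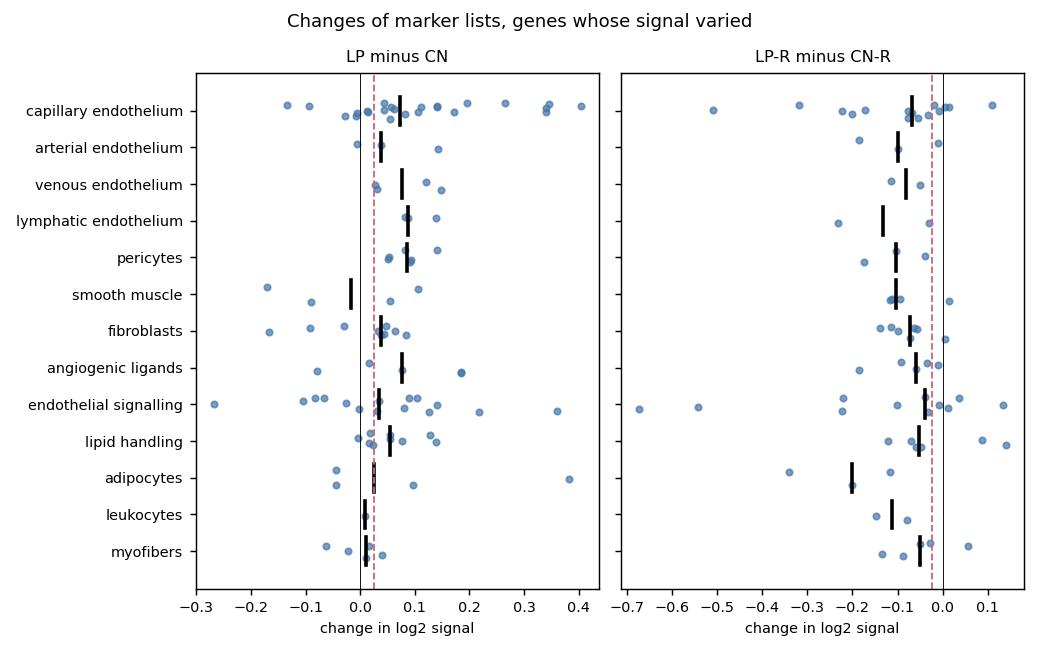
Change in log2 signal of each gene that varied in 13 lists of marker and pathway genes, for LP minus CN and LP-R minus CN-R, with a black bar at the median of the list and a dashed line at the median of all varying genes (0.03 and −0.02). The median of the endothelial members lies to the right of that line in LP (0.07) and to its left in LP-R (−0.07), as in 11 of the 16 lists, the endothelial one included, that had a varying gene in both comparisons (3 of the 16 are not drawn).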

How the data were processed

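Gastrocnemius RNA of 15 rats was measured on Affymetrix GeneChip rat genome arrays. The authors summarized the probes with FARMS in R and deposited 1 log2 signal for each probe set; the software versions they used are not given in the sources used here. The early and late arrays appear to have been summarized apart. No further normalization was applied. The 57 control probe sets were left out. Of 31042 others, 20826 carry 1 gene symbol, 436 several and 9780 none in the platform annotation, which can be old.

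Rank products ran over all pairs of arrays in Python 3.11.15 (numpy 2.4.6, pandas 2.3.3, scipy 1.17.1), with 100 permutations of the values within arrays and seed 1, at a pfp up to 0.05. limma 3.58.1 in R 4.3.3 ran on each comparison, with Benjamini-Hochberg adjustment over all probe sets at 0.05. Both were also run on simulated data with independent errors, which does not test the calls made on these arrays. Exact permutation p are two-sided and not adjusted. Promoters came from RefSeq, and their orientation was checked by the position of TATAAA.

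The members, the other gene lists and the naming rule were chosen with earlier results of these data known. Named with values in every array were members called or without overlap in either comparison and those in the study's tables, and from each other list up to 4 called genes of smallest limma p. Each array is a separate rat, and their small number limits the precision. Alternatives were limma with other priors and with a block, quantile normalization, median centring, filters on near-constant and dim probe sets, joined probe sets, another group for CN-R replicate 4, leaving out each array and, added after the values were seen, another seed, disjoint pairs and a term for replicate numbers.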

Additional observations from a re-analysis of the deposited data

Results flagged for a closer look

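In groups of 4 arrays, the highest or lowest value stood apart from the other 3 when its gap to the nearest, divided by the whole range of the group, exceeded 0.829. This held in 5 of 63 groups of a varying member, and chance alone gives about 1 in 20. Vwf in LP replicate 4 had a log2 signal of 7.30, below the other LP rats, with a ratio of 0.856. Esam in LP replicate 4 had 8.64, also the lowest, with a ratio of 0.897. Sox17 in LP replicate 1 had 8.75, above the other LP rats, with a ratio of 0.967. Without LP replicate 1 Sox17 was still called lower, and it was the one array of the 8 whose removal kept that call. Mmrn2 in CN replicate 1 had 8.08, below the other CN rats, with a ratio of 0.880. Sox18 in LP-R replicate 4 had 7.67, the lowest of LP-R, with a ratio of 0.898. Of these 5, Sox17 alone was called in LP against CN.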

How the results depend on the processing

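With limma in place of rank products, with a trend and robust prior, with the replicate number as a block or with a term that sets replicates 1 and 2 apart from 3 and 4, 0 members were called higher and 0 lower in LP, and 0 lower in LP-R. Same-numbered arrays of LP and CN had correlations of their deviations from the group means between −0.03 and 0.55, and differently numbered ones between −0.54 and 0.33. The highest were those of replicate 1 with replicate 1 (0.55) and of replicate 4 with replicate 4 (0.40). The labels name no litter or day behind the numbers, so they were not taken as pairs in the main comparison. Rank products over the varying probe sets alone gave the same counts of 0 in both comparisons. In LP, quantile normalization and leaving out the dimmest 25% of probe sets each gave 1 member lower, and leaving out the 6 members of the published tables gave 5 higher and 0 lower (0 lower in LP-R). With CN-R replicate 4 moved to LP-R, 0 were called lower. Without 1 array in turn, 4 to 10 members were called higher in LP (4 without LP replicate 1 or LP replicate 2 and 5 without LP replicate 3) and 0 to 3 lower, and 0 to 1 higher and 0 to 3 lower in LP-R. The 4 calls that held without each array were those of Kdr, Nrp1, Cyyr1 and Cxcr4. The change of Tmem100 in LP ranged from −0.47 to 0.07 without 1 array in turn and changed sign without CN replicate 3 (0.0704), CN replicate 4 (0.0094) and LP replicate 1 (0.0651). Other scalings, seeds and pairs of arrays kept the direction of each called member; the cause of the lost calls was not tested. Precision is limited by the 3 or 4 arrays in a group, and nothing was measured of members that FARMS drew to a constant.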
